A study of Mus musculus with 8 samples.

Results

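The 39 mouse genes described here are known as imprinted genes and fall into 17 imprinted domains. Imprinted means transcribed, in at least some tissues, mainly from the chromosome copy inherited from 1 parent. The list was made by symbol from knowledge of imprinting, with earlier results of these data known, and all 39 were found among the 18094 genes of the expression table. Their usual expressed copy is the paternal one for 21 genes and the maternal one for 18. Snrpn has 2 gene identifiers, so the 39 genes have 40 rows, of which 39 passed the expression filter, which asked for a mean normalized count of 10 or more across all 8 libraries. In all, 15767 genes passed it.

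The study asked what the lysine mutated in CTCF-K20R contributes to the differentiation of mouse embryonic stem cells (mESCs). RNA-seq was performed on wild-type (WT) mESCs of the male E14Tg2A line and on a CTCF-K20R derivative, in which CRISPR/Cas9 and a donor vector replaced a lysine of the insulator protein CTCF with arginine. Each genotype was sampled as mESCs on day 0, grown with LIF and 2i on inactivated mouse embryonic fibroblast feeders, and as embryoid bodies (EBs) on day 4, formed in hanging drops in serum without LIF. There were 2 libraries for each genotype and day, made from poly(A) RNA. How many edited clones entered the libraries was not stated, so the effect of the mutation and of the clone cannot be told apart. The study describes the libraries of a group as biological replicates from independent experiments. The p-values below measure only the spread between CTCF-K20R libraries of the same day and assume that WT samples vary as much.

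In an imprinted domain, DNA methylation laid down in one germline and not in the other marks an imprinting control region, and this mark sets which parental copy of the neighbouring genes is transcribed. CTCF is part of the textbook example: it binds the unmethylated maternal control region upstream of H19 and insulates Igf2 from shared enhancers. Many imprinted genes encode regulators of fetal and placental growth, and long noncoding RNAs silence the neighbouring genes in several domains. Reads were not assigned to parental copies here, so every value is the sum of both copies. Whether each gene was imprinted in these cells was not tested, and maternally or paternally expressed below refers to the usual copy.

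The values are read counts per gene that the authors normalized for library size and transcript length, and they are called normalized counts below. They summed to between 19412659 and 21311513 per library, and 3 reads corresponded to between 2.445 and 3.435 normalized counts. The 2 WT libraries of a day differed by less than sampling noise, with a mean squared difference of 0.314 times that expected from counting on day 0 and 0.278 times on day 4, against 4.00 and 4.37 times for the CTCF-K20R pairs. Each WT pair was therefore averaged and counted as 1 sample, and all error estimates come from the CTCF-K20R pairs. A gene is called higher or lower where the limma test gave an adjusted p below 0.05 and a log2 change beyond 1, on the log2(normalized count + 1) scale. The comparisons below share samples and are not independent of each other. Ctcf itself was counted at 3971 and 3938 in WT mESCs, 4610.0 and 4408 in CTCF-K20R mESCs, 4241 and 4256 in WT EBs, and 4926 and 4771 in CTCF-K20R EBs. The mutation was made in the coding sequence, so these values are no check of the labels.

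In CTCF-K20R EBs on day 4, 10 of the 39 rows were called lower than in WT EBs and 2 were called higher. Over all genes tested, 8.65% were called lower and 6.89% higher, and the corresponding shares of the imprinted rows were 25.6% and 5.13%. The median log2 change of the imprinted rows was -0.31, against 0.01 over all genes. The genes called lower were Asb4, Peg3, Phlda2, Peg12, Grb10, Cdkn1c, Igf2, Ndn, Slc38a4 and Peg10, with log2 changes from -4.78 to -1.20. Those called higher were Plagl1 and 1 of the 2 rows of Snrpn. By parental copy, 4 of 17 rows of maternally expressed genes were called lower and 0 higher (4 were positive at an unadjusted limma p below 0.05), and 6 of 22 rows of paternally expressed genes were called lower and 2 higher. In mESCs on day 0 the counts were smaller, with 3 rows called higher, where 1.19% of all genes were, and 3 called lower, where 2.6% of all genes were, and without either CTCF-K20R EB library 0 rows were called on day 0.

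**Figure D1:**
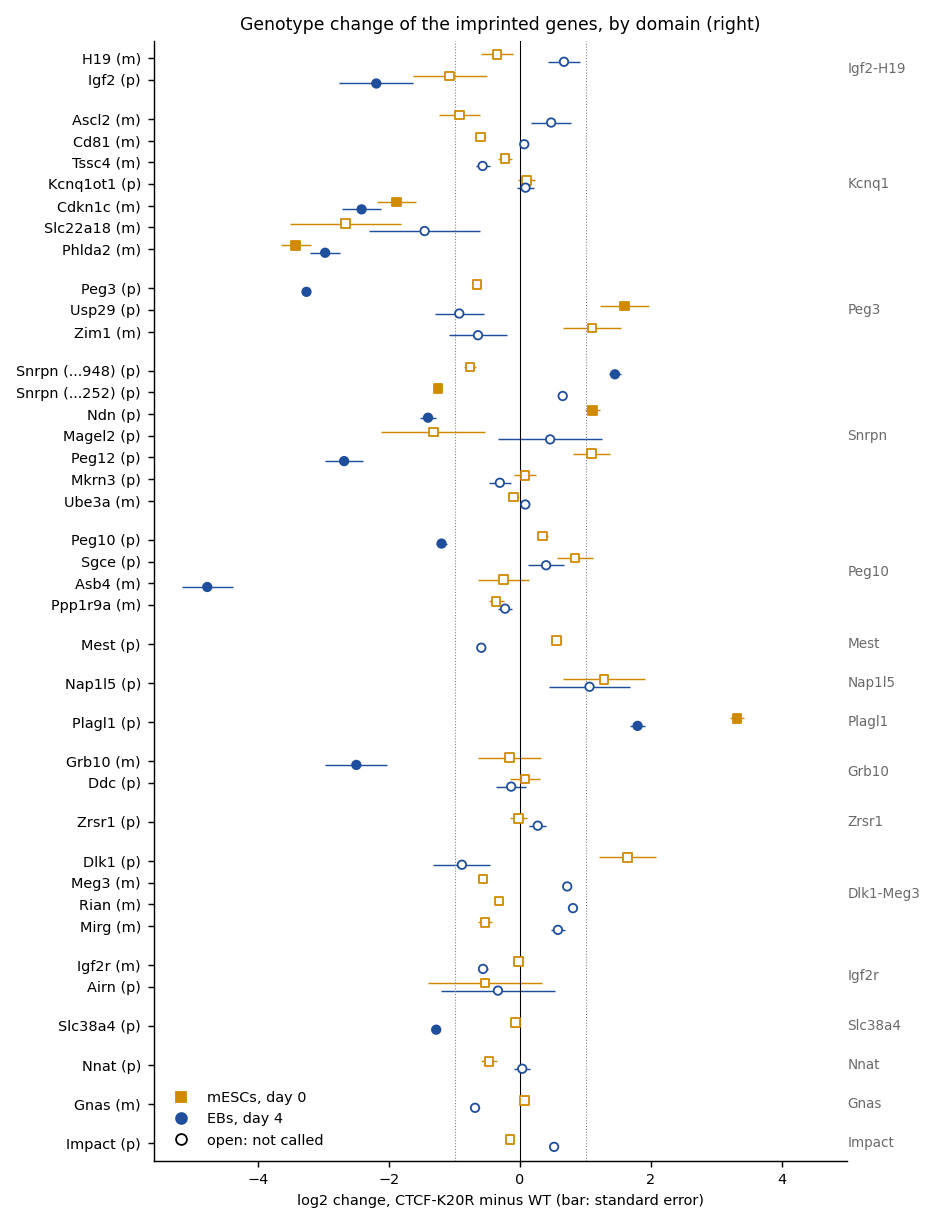
Log2 change of each imprinted gene between CTCF-K20R and WT samples in mESCs on day 0 (squares) and EBs on day 4 (circles), grouped by domain, with (m) or (p) for the expressed maternal or paternal copy. Bars are standard errors, filled symbols are called genes and dotted lines mark a log2 change of 1 in either direction. Asb4 lies farthest to the left at -4.78 in EBs and Plagl1 farthest to the right at 3.31 in mESCs.

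The EBs of the 2 genotypes also differed in genes listed as cell type markers, and these values stand beside every day 4 result below. The summed normalized counts of 11 mesoderm and primitive streak markers were 44925 and 45076 in WT EBs and 2685 and 2516 in CTCF-K20R EBs, and 11 of the 11 were called lower. Of 9 genes listed as trophoblast markers, 7 were in the table, and Tpbpa and Prl3d1 were not. The 7 summed to 11081 and 11121 in WT EBs and 3164 and 3113 in CTCF-K20R EBs. Of these, 4 were called lower in the limma test and the log2 changes of all 7 were negative. Most of the WT sum was Krt8 (7514 and 7504) and Krt18 (2496 and 2535), while Elf5 was at 19.5 and 17.7 in WT EBs. Whether trophoblast as a cell type changed was not tested. The other lists moved in both directions. Of 8 mESC markers, 5 were called higher, Nanog (1702 and 1698 against 5510.4 and 5208) and Sox2 (608 and 618 against 3240.2 and 3192) among them, and 2 were called lower, with sums of 39429 and 39487 in WT EBs and 44938 and 43808 in CTCF-K20R EBs. The 13 genes listed as extraembryonic endoderm markers summed to 5533 and 5563 in WT EBs and 481 and 397 in CTCF-K20R EBs. Of the 8 tested, 3 were called lower (Sox17, Gata6 and Foxa2, which held most of the WT sum) and 1 higher. The log2 changes of 3 were positive and those of 5 negative. Dab2 rose from 134 in both WT EB libraries to 262 and 229 in CTCF-K20R EBs, and Cubn and Amn were also higher. Afp and Ttr were at most 0.812 in WT EBs, and Apoa1 and Apoa4 at most 3.20. The fall in the sum is thus mainly that of Sox17, Gata6 and Foxa2. Whether extraembryonic endoderm as a cell type changed was not tested. Of 7 tested neural ectoderm markers, 3 were called higher and 1 lower, with log2 changes from -3.93 to 4.17, while the sums over all 8, mostly Otx2 and Nes, were 5848 and 5808 in WT EBs and 6631 and 6731 in CTCF-K20R EBs. Feeder fibroblast markers, of which 12 were in the table, summed to 2283 and 2253 in WT EBs and 1383 and 1318 in CTCF-K20R EBs, and of 9 tested, 3 were called lower and 2 higher. In the 4 mESC libraries they summed to 994 to 1161, with Twist2 and Postn at 0 and Col5a1 at 397 to 435. Thy1 stood at 465 and 459 in WT and 104 and 103 in CTCF-K20R mESCs, and Pdgfrb at 131 and 138 against 353 and 369. On day 0, 1 of the 9 tested was called higher and 1 lower, where 1.19% and 2.6% of all genes were. In bulk RNA, fewer cells of a type and less RNA per cell cannot be told apart. The part of cell composition in the values of the imprinted genes was not tested.

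The Igf2-H19 domain lies at the distal end of chromosome 7. Igf2, a fetal growth factor expressed from the paternal copy (chr7:142650766-142666816, mm10), was counted at 774 and 764 in WT EBs and at 181 and 154 in CTCF-K20R EBs. The groups did not overlap, and Igf2 fell by 2.20 on the log2 scale (SE 0.56, limma with Benjamini-Hochberg adjusted p = 0.0279), with a mean 4.59-fold lower. Without CTCF-K20R EB replicate 1 or 2 the adjusted p was 0.166 or 0.194, so this call rests on both libraries, and it is also lost without the expression filter (adjusted p = 0.0776). H19, the maternally expressed noncoding RNA of the same domain, ranged from 481 to 488 in WT EBs and from 769 to 774 in CTCF-K20R EBs. These values did not overlap either, but the log2 change of 0.67 (SE 0.24) did not pass the test (adjusted p = 0.0741). In mESCs both genes were low, H19 at 29.7 to 47.3 and Igf2 at 15.9 to 57.3 over the 4 libraries, and neither was called.

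Next to it lies the Kcnq1 domain, whose long noncoding RNA Kcnq1ot1 is transcribed from the paternal copy and silences neighbouring genes on that copy. Phlda2 and Cdkn1c, maternally expressed genes at one end of the domain, fell on both days. Phlda2, which restrains placental growth (chr7:143501545-143503150), was counted at 219 and 231 in WT mESCs and at 22.5 and 17.8 in CTCF-K20R mESCs. In EBs it stood at 1355 in both WT libraries and at 178 and 165 in the CTCF-K20R libraries. Phlda2 thus fell in both comparisons, by 3.43 (SE 0.23) on day 0 and by 2.98 (SE 0.23) on day 4 on the log2 scale (adjusted p = 0.00158 and 0.000487), which is 11.2-fold and 7.92-fold in the means. The difference between the days, 0.45 (SE 0.32), did not pass the test (adjusted p = 0.357).

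Cdkn1c, which encodes the cyclin-dependent kinase inhibitor p57 and lies close to Phlda2, showed the same order of groups. It was counted at 114 and 124 in WT mESCs, 38.5 and 25.7 in CTCF-K20R mESCs, 520.5 and 520.1 in WT EBs, and 96.5 and 96.1 in CTCF-K20R EBs. Cdkn1c fell by 1.89 (SE 0.30) on day 0 and by 2.42 (SE 0.30) on day 4 (adjusted p = 0.0162 and 0.00251). The day 0 call was lost with only the libraries compared (limma adjusted p = 0.112) and without the expression filter (0.051). It was also lost without either CTCF-K20R EB library. Leaving out CTCF-K20R EB replicate 1 or 2 moved the day 4 adjusted p to 0.0539 or 0.0533. Slc22a18, a membrane transporter gene located between the Cdkn1c and Phlda2 genes, ranged from 58.0 to 67.7 in WT mESCs and from 8.48 to 9.65 in CTCF-K20R mESCs. Its log2 changes of -2.67 (SE 0.85) on day 0 and -1.46 (SE 0.85) on day 4 did not pass the test (adjusted p = 0.0954 and 0.225). Without CTCF-K20R EB replicate 2 the day 4 change became -2.42 and passed (adjusted p = 0.0351).

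The remaining genes of the domain moved less. Kcnq1ot1 itself ranged from 807 to 961 over the 8 libraries, with log2 changes of 0.10 (SE 0.13) on day 0 and 0.08 (SE 0.13) on day 4. Cd81, a tetraspanin gene, was counted at 4876 and 4853 in WT mESCs and at 3212 and 3175 in CTCF-K20R mESCs, a log2 change of -0.61 (SE 0.05, adjusted p = 0.00212) that stayed inside the fold threshold. In EBs it was level, at 2243 and 2239 in WT and 2308 and 2375 in CTCF-K20R libraries. Ascl2, a transcription factor of the trophoblast lineage, ranged from 235 to 246 in WT and from 122 to 130.2 in CTCF-K20R mESCs (log2 change -0.93, SE 0.31, adjusted p = 0.107), and all 4 EB values lay between 37.6 and 66.1. Tssc4 ranged from 611 to 619 in WT and from 403 to 423 in CTCF-K20R EBs with no overlap, a day 4 change of -0.57 (SE 0.11, adjusted p = 0.0102) inside the fold threshold, and its day 0 change was -0.23 (SE 0.11, adjusted p = 0.219). Igf2os, antisense to Igf2, was called lower on day 4 (-3.27, SE 0.60) and was chosen after its values were seen. Since the strand setting of the counting is not given, its reads and those of Igf2 cannot be told apart.

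**Figure D2:**
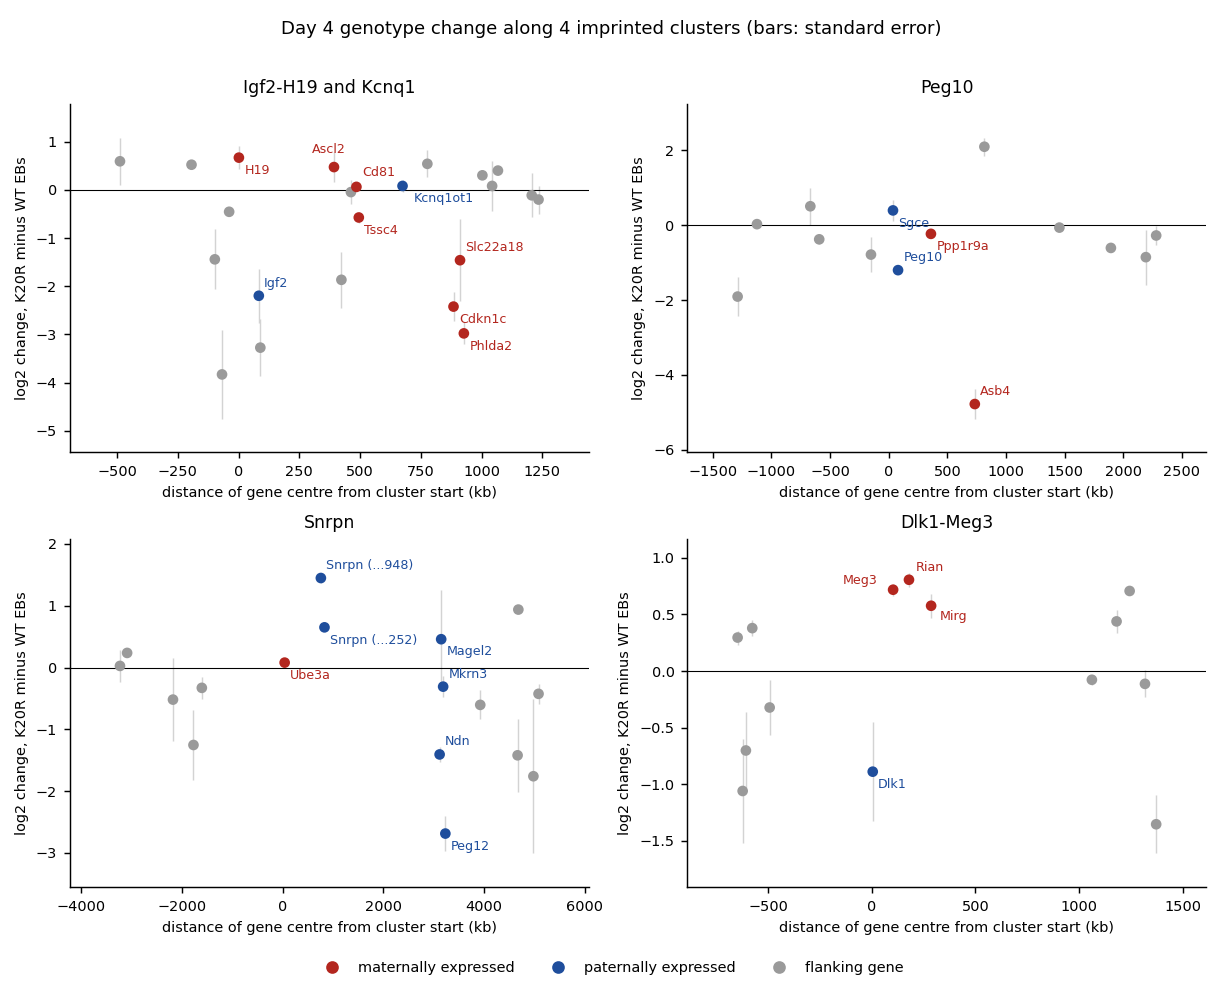
Day 4 log2 change (CTCF-K20R minus WT EBs, bars are standard errors) of the imprinted genes and of 5 tested flanking genes on each side of a domain, against the distance in kb of the gene centre from the start of the cluster. The Igf2-H19 and Kcnq1 domains share a panel, so the flanking genes Igf2os, Tspan32os, R74862 and RP23-124B2.4 lie between members there. Red points are maternally expressed genes, blue points are paternally expressed genes and grey points are flanking genes. In the panel for Igf2-H19 and Kcnq1, Cdkn1c (-2.42), Slc22a18 (-1.46) and Phlda2 (-2.98) lie together below 0 at the right while Kcnq1ot1 (0.08) lies near 0, and in the Dlk1-Meg3 panel the 3 maternally expressed RNAs lie above 0 and Dlk1 below.

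The Peg3 domain on proximal chromosome 7 held the most abundant of the genes called lower. Peg3, a zinc finger gene expressed from the paternal copy (chr7:6703892-6730431), was counted at 1883 and 1893 in WT mESCs, 1219 and 1179 in CTCF-K20R mESCs, 30945 and 30908 in WT EBs, and 3150.4 and 3291 in CTCF-K20R EBs. The WT EB libraries were the highest and the other libraries lay far below them. Peg3 fell by 3.26 (SE 0.05) on day 4, 9.60-fold in the means (adjusted p = 1.02e-05), and its day 0 change of -0.65 (SE 0.05, adjusted p = 0.00233) stayed inside the fold threshold. Between the days its genotype change differed by -2.61 (SE 0.07, adjusted p = 0.000101).

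Usp29, a ubiquitin peptidase gene transcribed in the opposite direction from a start next to that of Peg3, behaved differently in mESCs. It was counted at 13.7 and 11.4 in WT mESCs and at 37.8 and 41.9 in CTCF-K20R mESCs, and at 33.7 and 32.5 in WT EBs against 18.4 and 15.5 in CTCF-K20R EBs. The CTCF-K20R libraries were the higher ones on day 0 and the lower ones on day 4. Usp29 was called higher on day 0 (log2 change 1.59, SE 0.38, adjusted p = 0.0456), but not under 8 of the 14 alternative settings, where the adjusted p reached 0.139. It did not pass on day 4 (-0.93, SE 0.38, adjusted p = 0.104). Zim1, a maternally expressed zinc finger gene of the domain, stayed at 8.73 to 60.3 and was not called.

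The Snrpn domain on chromosome 7 carries paternally expressed genes and the maternally expressed Ube3a, a ubiquitin ligase gene. Snrpn encodes a core protein of spliceosomal particles. Its row ENSMUSG00000000948 was counted at 899 and 869 in WT mESCs, 540.3 and 502 in CTCF-K20R mESCs, 1239 and 1305 in WT EBs, and 3315 and 3641 in CTCF-K20R EBs. Its row ENSMUSG00000102252 was counted at 3386 and 3388, 1390.4 and 1441, 8035 and 8034, and 12714.5 and 12509 in the same order of groups. Both rows were lower in CTCF-K20R than in WT mESCs and higher in CTCF-K20R than in WT EBs, with no overlap. The first row was called higher on day 4 (log2 change 1.45, SE 0.09, adjusted p = 0.000228) and the second lower on day 0 (-1.26, SE 0.04, adjusted p = 0.000731). The other changes, 0.65 (SE 0.04) for the second row on day 4 and -0.76 (SE 0.09) for the first on day 0, stayed inside the fold threshold. The rows overlap each other and Snurf on the same strand, and the first row also overlaps D7Ertd715e. The split of reads between them is therefore uncertain.

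Farther along the domain, Ndn and Peg12 were lower in CTCF-K20R than in WT EBs, unlike Snrpn. Ndn, which encodes necdin of the MAGE family (chr7:62346569-62350262), was counted at 94.0 and 88.9 in WT mESCs, 199.8 and 196 in CTCF-K20R mESCs, 1840 and 1834 in WT EBs, and 722 and 663 in CTCF-K20R EBs. It rose by 1.10 (SE 0.12, adjusted p = 0.0052) on day 0 and fell by 1.41 (SE 0.12, adjusted p = 0.000635) on day 4. Peg12, a gene related to the GSK3-binding Frat family, was counted at 52.1 and 57.1, 136 and 102, 442 and 438, and 76.3 and 59.6 in the same order of groups. Like Ndn it was lowest in WT mESCs and highest in WT EBs. It fell by 2.69 (SE 0.29, adjusted p = 0.00143) on day 4 while its day 0 change of 1.09 (SE 0.29) did not pass (adjusted p = 0.0592). Magel2, another MAGE gene located between them, was at most 10.4 in all mESC libraries and ranged from 1119 to 1124 in WT EBs and from 1538 to 1545 in CTCF-K20R EBs, and it was not called (day 4 log2 change 0.46, SE 0.79). Mkrn3 ranged from 201 to 255 in the EBs and was not called.

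Ube3a was the flattest of the domain. It was counted at 1637 and 1636 in WT mESCs, 1536 and 1515 in CTCF-K20R mESCs, 1765 and 1769.9 in WT EBs, and 1834 and 1901 in CTCF-K20R EBs. Its log2 changes were -0.10 (SE 0.06) on day 0 and 0.08 (SE 0.06) on day 4, and neither passed the test (adjusted p = 0.294 and 0.321). D7Ertd715e, with a mean of 4238 over the 8 libraries, overlaps Ube3a on the opposite strand. Since the strand setting of the counting is not given, its reads and those of Ube3a cannot be told apart.

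**Figure D3:**
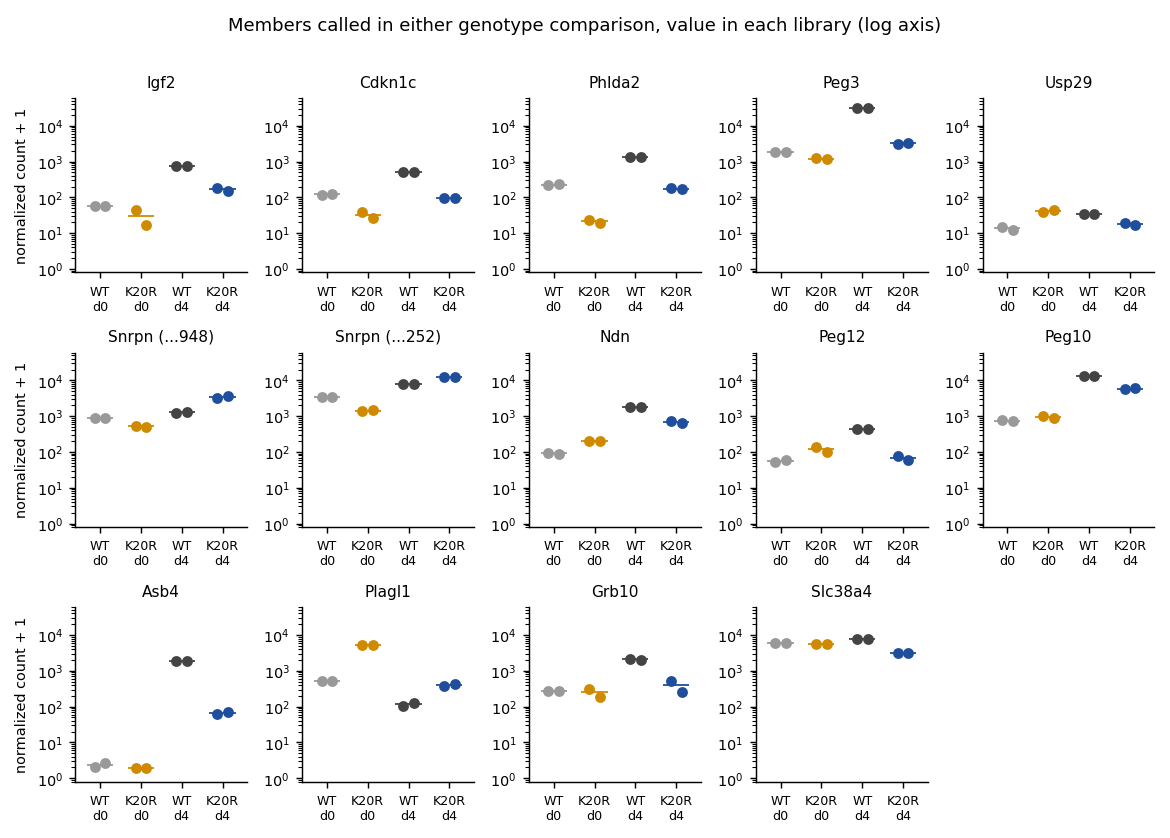
Normalized count plus 1 (log axis) in each of the 8 libraries for the 14 rows called in mESCs, in EBs or in both. Points are libraries, lines are the means of each genotype and day (WT d0, K20R d0, WT d4, K20R d4). The paired WT points lie on each other, Plagl1 (5172 and 5140.2) and Usp29 (37.8 and 41.9) are the panels in which CTCF-K20R mESCs lie above the other groups, and in the Asb4 panel the mESC libraries lie near the bottom of the axis.

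The Peg10 domain on chromosome 6 held the largest change of the list. Asb4, a maternally expressed gene for a SOCS box protein that serves in ubiquitination (chr6:5383386-5433022), was counted at 1861 and 1848 in WT EBs and at 62.9 and 70.5 in CTCF-K20R EBs. All 4 mESC libraries held at most 1.69, less than 3 reads, so Asb4 was not detectable above that limit on day 0. On day 4 it fell by 4.78 (SE 0.39, adjusted p = 0.000582), 27.8-fold in the means. Peg10, a gene derived from a retrotransposon and needed in the placenta, was counted at 758 and 753 in WT mESCs, 1029 and 891 in CTCF-K20R mESCs, 13495 and 13572 in WT EBs, and 5836 and 5945 in CTCF-K20R EBs. It fell by 1.20 (SE 0.09, adjusted p = 0.000446) on day 4, 2.30-fold in the means. Sgce, whose start faces that of Peg10, ranged from 128 to 189 in the EBs and was not called (0.40, SE 0.27), nor was Ppp1r9a, at 591 to 721 (-0.23, SE 0.11).

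Plagl1, a zinc finger transcription factor expressed from the paternal copy (chr10:13060504-13131694), had the largest increase of the list. It was counted at 512 and 524 in WT mESCs and at 5172 and 5140.2 in CTCF-K20R mESCs, and at 102 and 127 in WT EBs against 369 and 432 in CTCF-K20R EBs. The CTCF-K20R libraries were the higher ones on both days. Plagl1 rose by 3.31 (SE 0.11, adjusted p = 0.000731) on day 0, 9.96-fold in the means, and by 1.79 (SE 0.11, adjusted p = 0.000245) on day 4, 3.50-fold. The change was smaller on day 4 by 1.52 (SE 0.16, adjusted p = 0.0025).

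At the Grb10 domain on chromosome 11, Grb10, an adaptor protein that dampens insulin and IGF receptor signalling, was counted at 2110.1 and 2068 in WT EBs and at 525 and 258 in CTCF-K20R EBs. The CTCF-K20R libraries lay well apart from each other, but both lay below WT. Grb10 fell by 2.50 (SE 0.48, adjusted p = 0.0103), and without CTCF-K20R EB replicate 2 the change was -1.99 with an adjusted p of 0.0789. In mESCs its values of 277 and 264 in WT and 312 and 187 in CTCF-K20R libraries overlapped. Ddc, the aromatic amino acid decarboxylase gene next to it, ranged from 341 to 436 in the mESCs and from 44.9 to 53.5 in the EBs and was not called in either genotype comparison.

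Slc38a4, a paternally expressed amino acid transporter gene on chromosome 15, was counted at 5919.5 and 5902 in WT mESCs, 5599.9 and 5635 in CTCF-K20R mESCs, 7750.4 and 7701 in WT EBs, and 3128 and 3226 in CTCF-K20R EBs. It fell by 1.28 (SE 0.04, adjusted p = 4.12e-05) on day 4, 2.43-fold in the means, with a day 0 change of -0.07 (SE 0.04, adjusted p = 0.283). The mESC values thus lay close together and the EB values apart.

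In the Dlk1-Meg3 domain on chromosome 12, no gene was called in either genotype comparison, but its members moved in opposite directions between the days. Meg3, a maternally expressed long noncoding RNA, was counted at 4495 and 4445 in WT mESCs, 2913 and 3140.3 in CTCF-K20R mESCs, 8496 and 8372 in WT EBs, and 14064 and 13703 in CTCF-K20R EBs. Rian, the snoRNA host transcript of the same copy, was counted at 5269 and 5229.5, 4374 and 4022, 10014.5 and 10079.7, and 18109 and 17064 in the same order of groups. Mirg, the microRNA host transcript, followed at 341 and 357, 238 and 243, 684 and 667, and 1051 and 967. In each of the 3, both CTCF-K20R libraries were below WT on day 0 and above WT on day 4. Their day 4 log2 changes of 0.72 (SE 0.05), 0.81 (SE 0.06) and 0.58 (SE 0.11) had adjusted p of 0.000466, 0.000524 and 0.00904, inside the fold threshold. Dlk1, the paternally expressed ligand-like gene of the domain, went the other way, at 6.53 and 7.32 in WT and 32.3 and 17.4 in CTCF-K20R mESCs, and at 227 and 228 in WT and 112 and 134 in CTCF-K20R EBs. Its changes of 1.64 (SE 0.44) on day 0 and -0.89 (SE 0.44) on day 4 did not pass (adjusted p = 0.0613 and 0.161).

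Among the domains with 1 or 2 members, several abundant genes passed the adjusted p on day 4 with changes inside the fold threshold. Mest, a paternally expressed gene for a hydrolase-like protein, was counted at 1821 and 1785 in WT mESCs, 2605 and 2691 in CTCF-K20R mESCs, 6400.1 and 6274 in WT EBs, and 4171 and 4232 in CTCF-K20R EBs. It was higher in CTCF-K20R samples on day 0 (0.55, SE 0.05, adjusted p = 0.00253) and lower on day 4 (-0.59, SE 0.05, adjusted p = 0.000501). Gnas, the gene of the stimulatory G protein alpha subunit, was counted at 3133 and 3134 in WT mESCs, 3408 and 3171 in CTCF-K20R mESCs, 11256 and 11253 in WT EBs, and 6912 and 7055 in CTCF-K20R EBs, a day 4 change of -0.69 (SE 0.05, adjusted p = 0.000523). Gnas has several promoters with different imprints, and gene counts do not separate them. Igf2r, the receptor that clears IGF2, was counted at 2462 and 2475 in WT mESCs, 2509.9 and 2343 in CTCF-K20R mESCs, 3483 and 3448 in WT EBs, and 2259 and 2423 in CTCF-K20R EBs, a day 4 change of -0.57 (SE 0.07, adjusted p = 0.00233). Impact, a regulator of the translation kinase GCN2, had the opposite sign at 5157 and 5166, 4680.1 and 4612, 6994 and 6983, and 10074 and 9957 in the same order of groups, a day 4 change of 0.52 (SE 0.04, adjusted p = 0.000327).

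The remaining genes were not called on either day. Nnat, a neuronal proteolipid gene, ranged from 148 to 229 in the mESCs and from 1550.4 to 1593 in the EBs, with a day 4 change of 0.03 (SE 0.12). Zrsr1 ranged from 432 to 566, Nap1l5 from 4.52 to 47.4 and Airn, the noncoding RNA antisense to Igf2r, from 3.72 to 33.2 over the 8 libraries. Dcn, the proteoglycan decorin, was at 0 in all 4 mESC libraries, at 1.05 and 0.884 in WT EBs and at 15.4 and 14.9 in CTCF-K20R EBs. It did not pass the expression filter and was not tested.

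The difference of the genotype change between the days was tested directly. It passed for 15 of the 39 rows, with 5 more positive on day 4, where 6.84% of all genes were, and 10 more negative, where 6.04% were. Those more positive were both rows of Snrpn, Meg3, Rian and Mirg, by 1.11 to 2.21. All of them lie in the Snrpn and Dlk1-Meg3 domains, and the Snrpn rows overlap, so their number is not a number of separate loci. Those more negative were Asb4, Peg12, Peg3, Dlk1, Usp29, Ndn, Peg10, Plagl1, Slc38a4 and Mest, with differences from -4.53 to -1.15. By parental copy, 9 of 22 rows of paternally expressed genes were more negative on day 4 and 2 more positive, against 1 and 3 of 17 rows of maternally expressed genes. Without single CTCF-K20R libraries the call was lost for Dlk1 (mESC replicate 1, EB replicate 1 or EB replicate 2, adjusted p = 0.0547, 0.161 and 0.142), for Usp29 (any of the 4 libraries, 0.0579 to 0.0748), for Mirg (either EB replicate, 0.0562 and 0.0509) and for Peg12 (EB replicate 2, 0.0524). Dlk1 also lost it without the expression filter (adjusted p = 0.079), and with quantile normalization the difference of Rian was 0.92, inside the fold threshold. The day 0 calls are the less stable of the genotype comparisons: the fit has 2 residual degrees of freedom, and without either CTCF-K20R EB library 0 members were called on day 0, with adjusted p of 0.0588 to 0.109 for the 6 rows (17 and 19 of the 39 rows had an unadjusted limma p below 0.05).

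Many imprinted genes were more abundant in EBs than in mESCs of the same genotype. In the WT, with 1 sample a day and no test, 21 of 39 rows were higher by more than 1 on the log2 scale, where 18.9% of all genes were, and 5 were lower, where 16.3% were. In CTCF-K20R samples 20 rows were called higher, where 14.5% of all genes were, and 4 were called lower, where 11.6% were. The medians of the imprinted rows were 1.29 in the WT and 1.11 in CTCF-K20R samples, against 0.01 over all genes in both. Peg3 was 16.4-fold higher in WT EBs than in WT mESCs and 2.69-fold higher in CTCF-K20R samples, and Ndn 20.1-fold and 3.50-fold. Snrpn ENSMUSG00000000948 was 1.44-fold and 6.67-fold higher, and Meg3 1.89-fold and 4.59-fold. Peg12 and Usp29 were higher in WT EBs than in WT mESCs, 8.06-fold and 2.64-fold, and lower in CTCF-K20R EBs than in CTCF-K20R mESCs, with log2 changes of -0.79 (SE 0.23, adjusted p = 0.031) and -1.19 (SE 0.31, adjusted p = 0.0196), the latter a call that is lost without CTCF-K20R mESC replicate 1 or 2 or EB replicate 2.

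**Figure D4:**
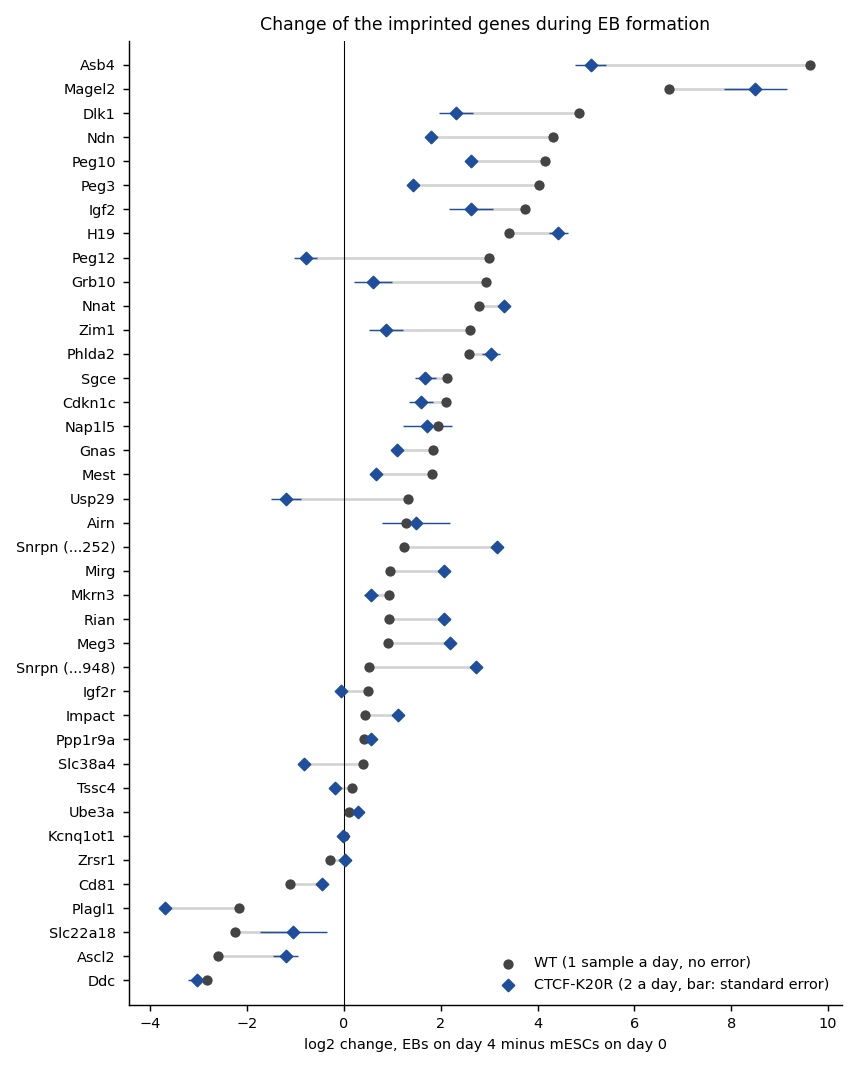
Log2 change of each tested imprinted gene from mESCs on day 0 to EBs on day 4 in WT (grey circles, 1 sample a day, no error) and CTCF-K20R samples (blue diamonds, bars are standard errors), sorted by the WT value. Asb4 tops the list at 9.62 in the WT and 5.10 in CTCF-K20R samples, Ddc ends it at -2.83 and -3.04, and the grey line joining the symbols is long for Peg12, Peg3, Ndn and Usp29.

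The neighbouring genes of the domains, 5 on each side and 164 in all, gave the local background, from which the examples below were chosen after their values were seen. Igf2os, which overlaps Igf2, is among them. On day 4, 18 of the 164 were called lower (11.0%, against 8.65% of all genes) and 9 higher (5.49%, against 6.89%), with a median log2 change of -0.05. On day 0, 5 were called lower (3.05%, against 2.6% of all genes) and 0 higher (against 1.19%) in the limma test (21 were positive at an unadjusted p below 0.05). Around the Igf2-H19 and Kcnq1 domains Mrpl23, a mitochondrial ribosomal protein gene next to H19, was counted at 528 and 514 in WT and 239 and 238 in CTCF-K20R mESCs and fell by 1.13 (SE 0.09, adjusted p = 0.00253). Near Peg10, Pdk4, a pyruvate dehydrogenase kinase gene close to Asb4, was counted at 15.0 and 13.4 in WT and 65.8 and 62.3 in CTCF-K20R EBs and rose by 2.10 (SE 0.24, adjusted p = 0.00175). Kitl, the KIT ligand gene beside Dcn, fell by 5.08 (SE 0.31), from 889.8 and 875 in WT EBs to 25.5 and 24.7 in CTCF-K20R EBs.

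A further list of 44 imprinted genes outside the 39 held 33 in the table, of which 28 were tested. On day 4, 2 were called higher (7.14%, against 6.89% of all genes) and 1 lower (3.57%, against 8.65%), with a median log2 change of 0.03. The larger share called lower among the 39 rows was thus not seen in this list. On day 0 the limma test called 0 (8 had an unadjusted p below 0.05). Calcr, the calcitonin receptor gene of the Peg10 domain, rose from 230.5 and 232 in WT EBs to 622 and 625 in CTCF-K20R EBs (1.43, SE 0.28, adjusted p = 0.0109). Snurf, which shares its transcript with Snrpn, rose from 102.5 in both WT EB libraries to 395 and 324 (1.79, SE 0.45, adjusted p = 0.0263). Herc3, which contains Nap1l5 in an intron, fell from 1201 and 1229 to 481 and 590.1 (-1.19, SE 0.18, adjusted p = 0.00482).

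Genes that set or guard imprints were compared as a list of 21, of which 20 were tested. On day 4, 4 were called higher (20%, against 6.89% of all genes) and 1 lower (5%, against 8.65%). Dnmt3b, a DNA methyltransferase gene, was counted at 14624 and 14619.7 in WT EBs and at 36756 and 38179.8 in CTCF-K20R EBs and rose by 1.36 (SE 0.04). Dnmt3l, its cofactor, rose by 2.50 (SE 0.05), from 276 and 272 to 1579 and 1524, and Tet1, which oxidises methylated cytosine, rose by 1.43 (SE 0.16). The fourth was Ctcfl, a testis paralogue of Ctcf with low counts that was named after its values were seen, at 6.81 and 5.75 in WT and 34.0 and 18.6 in CTCF-K20R EBs (1.85, SE 0.52). Zfp57, the zinc finger protein that binds methylated imprinting control regions, fell by 1.15 (SE 0.11), from 1513 and 1534 to 747 and 626. On day 0 the 1 gene called was Tet3, which rose by 1.31 (SE 0.10), where 1.19% of all genes were called higher. Trim28, the corepressor recruited by ZFP57, was called on neither day, with log2 changes of 0.35 (SE 0.03) on day 4 and 0.08 (SE 0.03) on day 0. Whether these changes bear on the imprinted genes was not tested.

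The bases before the start sites of the imprinted genes were searched for the hexamer TGCCGC, which ZFP57 reads when methylated, and for GGNGGCAG, a part of the CTCF motif, on both strands. The motifs can overlap, since the second holds the reverse complement of the first where N is C. RefSeq (GRCm38.p6) gave 51 starts for 33 of the 39 genes, and the 250 bases before each start were read. TGCCGC was found before 6 of the 51 starts (11.8%) against 8.68% of 32851 starts of all genes, and GGNGGCAG before 5 (9.8%) against 9.93%. The starts of Mest with TGCCGC have overlapping stretches (chr6:30737800-30738049 and chr6:30737803-30738052) that hold the same hexamers, so the 6 are not separate sites. The median number of CpG dinucleotides was 8 against 6. The sequences below are shown because the genes differed between the genotypes or between the days and hold a match, which is in capitals; a match is a string of letters and not a measured binding site, and imprinting control regions often lie elsewhere. They are the bases before 1 start each of Mest (chr6:30737800-30738049, plus strand), Phlda2 (chr7:143502525-143502774, minus strand), Plagl1 (chr10:13090582-13090831, plus strand) and Meg3 (chr12:109540746-109540995, plus strand), written 5′ to 3′.
Mest: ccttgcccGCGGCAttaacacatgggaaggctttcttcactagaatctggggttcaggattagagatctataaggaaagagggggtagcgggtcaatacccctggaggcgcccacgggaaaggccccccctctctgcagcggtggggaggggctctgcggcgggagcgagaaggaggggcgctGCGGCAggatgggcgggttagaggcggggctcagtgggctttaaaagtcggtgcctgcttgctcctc
Phlda2: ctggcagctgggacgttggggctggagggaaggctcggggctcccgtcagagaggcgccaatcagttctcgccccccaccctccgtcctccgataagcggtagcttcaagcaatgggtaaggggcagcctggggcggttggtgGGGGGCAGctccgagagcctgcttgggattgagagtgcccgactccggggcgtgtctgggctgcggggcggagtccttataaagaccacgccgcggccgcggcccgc
Plagl1: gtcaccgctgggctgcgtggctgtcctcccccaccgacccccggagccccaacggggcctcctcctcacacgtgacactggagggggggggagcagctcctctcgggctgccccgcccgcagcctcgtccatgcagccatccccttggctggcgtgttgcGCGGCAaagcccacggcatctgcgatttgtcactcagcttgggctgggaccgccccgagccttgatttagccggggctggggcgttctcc
Meg3: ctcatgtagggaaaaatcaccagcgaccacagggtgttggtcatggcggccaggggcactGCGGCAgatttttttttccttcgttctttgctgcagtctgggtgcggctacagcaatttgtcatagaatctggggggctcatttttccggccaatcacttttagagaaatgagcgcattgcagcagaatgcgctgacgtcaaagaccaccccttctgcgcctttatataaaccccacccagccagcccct
The capitals in Mest, Plagl1 and Meg3 mark the TGCCGC hexamer, read on the opposite strand, which occurs 2 times before Mest and 1 time each before Plagl1 and Meg3. The capitals in Phlda2 mark GGNGGCAG. The Phlda2 stretch is rich in CpG, with 21 in 250 bases, against 19 for Plagl1, 14 for Mest and 10 for Meg3. Impact, Peg10, H19, Cdkn1c, Dcn and Sgce were not searched.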

How the data were processed

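Gene expression was measured by RNA-seq of poly(A) RNA in 8 libraries, 2 for each genotype and day, grouped by the sample labels. The authors trimmed reads with Trim Galore, quantified them on mm10 with Salmon and summed transcripts to genes, and the deposited values are counts per gene normalized with DESeq2, a library-scaled signal with a transcript length correction and not whole reads. The annotation release and strand setting are not given in the sources used here, and 0 columns of values were left out. Values were taken as log2(normalized count + 1) and tested with limma 3.58.1 in R 4.3.3 (eBayes with a mean-variance trend, Benjamini-Hochberg adjustment over 15767 genes), with genotype and day as 4 groups. Each WT pair entered as its mean, which left 6 samples, 2 residual and 3.51 prior degrees of freedom. The fit was tested on simulated data. Depth limits precision as given by the value of 3 reads, for counting error only.

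Gene positions came from GENCODE vM21 (GRCm38, the build of mm10) and promoter bases from RefSeq. Values per library are given for members called in a genotype comparison or in the difference between days, or with a mean of at least 1000, and genes outside the list for at most 4 called genes of a list and day with a mean of at least 50. Ctcf, Ctcfl, Igf2os and Trim28 are named outside this rule. The members, lists and this rule were chosen with earlier results of these data known. Alternatives were another pseudocount, no filter, quantile normalization, all 8 libraries as separate samples, a replicate block, the compared libraries alone and leaving out each library. WT differentiation has 1 sample a day and no test.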

Additional observations from a re-analysis of the deposited data

Results flagged for a closer look

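The genotype change of 15 rows of the imprinted genes differed between day 4 and day 0 in the limma test of that difference (Benjamini-Hochberg adjusted p below 0.05, log2 difference beyond 1). A positive value means that the change from WT to CTCF-K20R was more positive in EBs than in mESCs. Of the 39 rows tested, 5 were more positive and 10 more negative, where 6.84% and 6.04% of all genes were. In the Snrpn domain the differences were 2.21 (SE 0.12) for Snrpn ENSMUSG00000000948, 1.91 (SE 0.06) for Snrpn ENSMUSG00000102252, -2.51 (SE 0.17) for Ndn and -3.78 (SE 0.40) for Peg12, so neighbouring paternally expressed genes differed between the days in opposite directions. In the Dlk1-Meg3 domain they were 1.28 (SE 0.08) for Meg3, 1.13 (SE 0.09) for Rian and 1.11 (SE 0.15) for Mirg, all maternally expressed, and -2.53 (SE 0.62) for Dlk1, the paternally expressed gene. In the Peg3 domain they were -2.61 (SE 0.07) for Peg3 and -2.52 (SE 0.53) for Usp29, which have adjacent start sites. In the Peg10 domain Asb4 differed by -4.53 (SE 0.55) and Peg10 by -1.54 (SE 0.13). Plagl1 differed by -1.52 (SE 0.16), Slc38a4 by -1.21 (SE 0.06) and Mest by -1.15 (SE 0.06).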

How the results depend on the processing

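On day 4 the counts of members called, 10 lower and 2 higher, ranged from 8 to 10 and from 2 to 3 over all 14 alternatives. On day 0 the 3 called higher became 7 with all 8 libraries as separate samples, 5 with quantile normalization, 1 with only the libraries compared, and 0 to 3 leaving out 1 library. The 3 called lower became 1 with only the libraries compared and 0 to 4 leaving out 1 library. With a replicate block over all 8 libraries the day 0 counts were 7 higher and 5 lower. Deviations of same-numbered libraries had correlations from -0.0308 to 0.0296. Those with a WT pair, whose libraries differ by less than sampling noise, could hardly show a pairing. Between CTCF-K20R mESCs and EBs the correlation was -0.01, so no pairing was seen there. The fits with all 8 libraries also hold more samples. The 4 members called lower from CTCF-K20R mESCs to EBs became 2 to 4, and the 20 called higher 16 to 20, leaving out 1 library. Where a library is left out of a group of 2, the lone library is assumed to vary like the others.

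Small changes that were not called changed sign. With quantile normalization these were Ddc on day 4 (0.10) and in the difference between days (0.00945), Asb4 on day 0 (0.0675), Kcnq1ot1 in the difference (0.0256) and from CTCF-K20R mESCs to EBs (0.0292), and Igf2r from CTCF-K20R mESCs to EBs (0.0215). Leaving out 1 library, the log2 change ranged from -0.70 to 0.0225 for Airn on day 4. On day 0 it ranged from -1.51 to 0.44 for Airn, from -0.53 to 0.20 for Grb10, from -0.10 to 0.25 for Ddc, from -0.075 to 0.0239 for Igf2r, from -0.0855 to 0.0293 for Zrsr1 and from -0.0283 to 0.22 for Kcnq1ot1. In the difference it ranged from -0.87 to 0.43 for Nap1l5, from -0.78 to 1.17 for Airn and from -0.14 to 0.11 for Kcnq1ot1. From CTCF-K20R mESCs to EBs it ranged from -0.0919 to 0.12 for Zrsr1 and from -0.14 to 0.11 for Kcnq1ot1.

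Limits: the error rests on CTCF-K20R pairs with 2 residual degrees of freedom, how many clones stand for the genotype is not stated, both parental copies are summed, and values of few reads (Asb4, Magel2, Nap1l5 and Airn in mESCs, Slc22a18 in CTCF-K20R samples) are imprecise.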
